A study of Mus musculus with 54 samples.

Results

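The 10 genes described here bring L-arginine into the macrophage (Slc7a2), turn it into nitric oxide (Nos2) or into ornithine and urea (Arg1, Arg2), rebuild it from citrulline (Ass1, Asl), or make and recycle tetrahydrobiopterin (Gch1, Pts, Spr, Qdpr). The rule names them by symbol and uses no measured value, but the genes were chosen with earlier results of these data known. All 10 were found among the 39179 counted gene identifiers, and all 10 passed the expression filter of both experiments. The cells were thioglycolate-elicited peritoneal macrophages of C57BL/6 mice aged 8 to 20 weeks, that is, adherent cells of the exudate that a sterile irritant draws into the abdominal cavity. In the polarization experiment, cells of each of 3 mice were kept for 24 h without stimulus (M0), with LPS at 100 ng/ml plus IFNγ at 50 ng/ml (M1-like) or with IL-4 at 10 ng/ml (M2-like), and 2 technical replicates of each were sequenced, which gave 18 libraries. The reprogramming experiment had 12 conditions with 3 replicates each, 36 libraries in all. These were M0, M1-like and M2-like macrophages, each untransfected or mock transfected (transfection reagent alone), and M2-like macrophages 48 h after transfection with a negative control siRNA pool (negative pool), with a pool against E2f1, Myc, Pparg or Stat6, or with these 4 pools combined, a condition called iM1. Polarization lasted 24 h in this experiment too, the medium after transfection held no IL-4, and the study's methods place RNA-seq of unmanipulated macrophages at 24 h of polarization and that of the reprogramming study at 48 h after transfection. They do not say which of these times applies to the untransfected conditions of the reprogramming experiment. The labels do not tie the replicates of the reprogramming experiment to separate mice, so its p-values measure the spread between these samples. In bulk RNA of this kind, fewer cells of a type and less RNA per cell cannot be told apart.

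L-arginine is the shared substrate of nitric oxide synthase and arginase. Inducible nitric oxide synthase (Nos2) turns it into nitric oxide and citrulline and needs tetrahydrobiopterin as a cofactor, which Gch1, Pts and Spr make from GTP and Qdpr regenerates from its oxidized form. Argininosuccinate synthase (Ass1) and argininosuccinate lyase (Asl) return citrulline to arginine, whereas arginase takes arginine towards ornithine, polyamines and proline. In mouse macrophages, high Nos2 is a textbook sign of activation by LPS and IFNγ and high Arg1 of activation by IL-4.

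Libraries of the polarization experiment held 19714994 to 29880494 counted reads, and the 2 technical replicates of a mouse, which differed by little more than counting noise, were summed. Libraries of the reprogramming experiment held 13421854 to 19704195. Levels are given as CPM (counts scaled to 1e6 reads) on TMM-normalized library sizes, with the values in the order of the numbered mice or replicates, and the mean ± SD of n = 3. The 7 macrophage markers (among them Lyz2, Cd68 and Csf1r) summed to 10281 to 17376 CPM in libraries of the first and 6211 to 18319.7 CPM in those of the second experiment. The sums of T cell and of natural killer cell markers did not exceed 6.97 CPM, whereas in the reprogramming experiment the sums reached 448 CPM for 5 fibroblast markers, 114 CPM for neutrophil markers, 46.3 CPM for eosinophil, 38.5 CPM for mesothelial and 35.7 CPM for B cell markers. The neutrophil sum was mostly Mmp8 in the M2-like libraries of that experiment. Of the 7 neutrophil markers, only 4 stayed under 1 CPM in all of its libraries. Among these were Ly6g, S100a9 and Retnlg, which did not exceed 0.860 CPM in any library. The siRNA targets, as a share of their CPM in mock-transfected M2-like macrophages (n = 3), were 18.9 ± 3.03% for E2f1, 35.4 ± 7.45% for Myc, 24.1 ± 2.82% for Pparg and 27.9 ± 5.91% for Stat6 with their own pool, and 45.2 ± 1.5%, 36.8 ± 2.97%, 31.0 ± 2.46% and 55.1 ± 4.92% with the combined pools. Log2 fold changes and Benjamini-Hochberg adjusted p-values come from edgeR's quasi-likelihood test across all genes, and a gene was called at an adjusted p-value under 0.05. The 2 experiments differ in read type and were normalized separately, so levels of one are not compared with the other.

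Among the members with a promoter sequence in the RefSeq table used here (GRCm38.p6; Ass1, Gch1, Pts, Spr and Qdpr), 3 are printed because the results of the knockdowns turn on them: Ass1 and Gch1, which were higher together, and Qdpr, which was lower. Each sequence holds the 250 bases before the RefSeq transcription start, 5′ to 3′ on the strand of the gene, and capitals mark matches on either strand. CACGTG is the E-box that Myc and its partner Max can bind. GGGCGG is known as the GC box. CCAAT is the box of that name, which reads ATTGG from the opposite strand.
Ass1, chr2:31470020-31470269, plus strand: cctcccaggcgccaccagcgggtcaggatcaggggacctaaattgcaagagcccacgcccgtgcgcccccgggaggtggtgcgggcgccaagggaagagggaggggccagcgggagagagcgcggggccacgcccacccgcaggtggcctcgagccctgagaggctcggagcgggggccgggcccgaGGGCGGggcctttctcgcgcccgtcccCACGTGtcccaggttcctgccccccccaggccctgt
Gch1, chr14:47189414-47189663, minus strand: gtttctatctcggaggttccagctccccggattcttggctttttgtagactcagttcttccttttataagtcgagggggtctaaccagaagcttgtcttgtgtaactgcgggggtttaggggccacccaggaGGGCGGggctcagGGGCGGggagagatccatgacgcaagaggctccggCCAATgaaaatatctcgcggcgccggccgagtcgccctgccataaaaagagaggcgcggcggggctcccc
Qdpr, chr5:45450230-45450479, minus strand: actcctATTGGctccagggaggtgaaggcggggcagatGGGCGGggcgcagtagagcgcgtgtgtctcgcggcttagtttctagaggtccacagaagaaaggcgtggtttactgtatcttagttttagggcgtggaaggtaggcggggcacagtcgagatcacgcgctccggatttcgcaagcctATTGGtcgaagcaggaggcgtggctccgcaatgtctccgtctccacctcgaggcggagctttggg
Both strands were searched. CACGTG stood in the Ass1 promoter, beginning 36 bases before the start, and in none of the other 4, while 6.02% of the 32851 promoters of the table hold it in this window. GGGCGG (in 32.7% of all promoters) was in all 5, in Gch1 at 118 and 105 bases before the start, and CCAAT (in 33.8%) was in Gch1 at 70 bases and in Qdpr at 244 and 65 bases before it. The E2f motifs TTTCCCGC and TTTGGCGC (in 0.895% and 0.417% of all promoters) and the Stat6 motif, TTC and GAA with 4 bases between them (in 5.85%), were searched as well and had no match in any of the 5. These matches are descriptions of letters, and binding was not measured.

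The first comparison asks how the RNA levels of these genes differed between 24 h with LPS and IFNγ and 24 h without stimulus. Nos2, Slc7a2, Ass1 and Gch1 rose together, Arg1 and Arg2 rose as well, and Pts and Qdpr fell. Of the 10 members, 6 were higher and 2 lower with LPS and IFNγ than without stimulus, against 35.4% and 37.5% of the 16110 genes tested, and their median log2 fold change was 3.10 against -0.04 over all genes. Nos2 (chr11:78920787-78960254, plus strand; coordinates here and below from GENCODE M21 on GRCm38) was at 1.0, 0.671 and 1.14 CPM in the 3 M0 samples and at 14011, 11972 and 11072 CPM in the 3 M1-like samples. Every M1-like value lay far above every M0 value, and Nos2 alone took 0.895 to 1.14% of all counted reads of an M1-like sample (log2 fold change 13.68, standard error 0.25, edgeR adjusted p = 5.06e-13). Slc7a2 (chr8:40862396-40922308, plus strand), a cationic amino acid transporter of the plasma membrane, went from 62.4, 54.3 and 61.5 CPM in M0 to 5740.4, 4649.8 and 4984 CPM in M1-like macrophages (log2 fold change 6.43, standard error 0.13, edgeR adjusted p = 9.91e-13). Its exons share 635 bases with Gm26584 on the opposite strand, and the strand setting of the counting is not given in the sources used here.

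**Figure D1:**
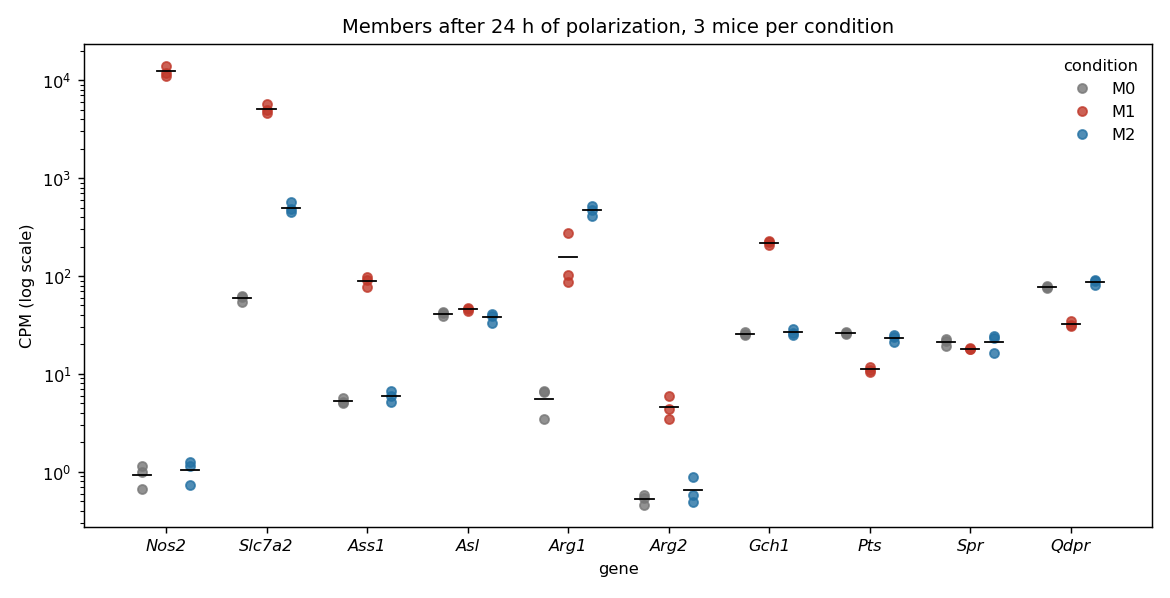
CPM (log scale) of the 10 members in the polarization experiment, with 1 point per mouse (3 per condition, technical replicates summed) and a bar at the mean. M1-like points of Nos2, Slc7a2, Ass1, Arg2 and Gch1 lie above those of the other conditions, M2-like points lie highest for Arg1, and M1-like points lie lowest for Pts and Qdpr.

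The enzymes that rebuild arginine differed from each other. Ass1 (chr2:31470207-31520672, plus strand), the rate-limiting step of citrulline recycling, was at 5.14, 5.04 and 5.66 CPM in M0 and at 92.1, 77.6 and 97.1 CPM in M1-like macrophages, without overlap (log2 fold change 4.07, standard error 0.11, edgeR adjusted p = 1.54e-11). Asl (chr5:130011258-130029247, minus strand), which completes the step, was at 41.4 ± 1.89 CPM in M0 and 45.8 ± 1.57 CPM in M1-like macrophages and was not called (log2 fold change 0.15, standard error 0.08, edgeR adjusted p = 0.099). Arginase 1 (Arg1, chr10:24915221-24927484, minus strand), the cytosolic enzyme, was at 6.48, 3.45 and 6.62 CPM in M0 and at 276, 87.6 and 103 CPM in M1-like macrophages (log2 fold change 4.82, standard error 0.43, edgeR adjusted p = 7.19e-07). The groups did not overlap, yet mouse 1 stood far above the other two in the M1-like group. Arg2 (chr12:79130777-79156301, plus strand), the mitochondrial arginase, remained a low transcript, 0.526 ± 0.0606 CPM in M0 and 4.56 ± 1.24 CPM in M1-like macrophages (log2 fold change 3.10, standard error 0.25, edgeR adjusted p = 2.45e-07), and 285 of its exonic bases are shared with Vti1b on the opposite strand.

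The 4 genes of tetrahydrobiopterin did not move as 1 group after 24 h. Gch1 (chr14:47153895-47189413, minus strand), GTP cyclohydrolase 1 and the rate-limiting enzyme of synthesis, was at 25.3, 25.0 and 26.6 CPM in M0 and 206, 221 and 230.3 CPM in M1-like macrophages (log2 fold change 3.09, standard error 0.07, edgeR adjusted p = 3.49e-12). Pts (chr9:50521617-50528724, minus strand), which acts after Gch1, went the other way, from 25.3, 26.5 and 26.7 CPM to 10.4, 11.9 and 11.1 CPM (log2 fold change -1.23, standard error 0.08, edgeR adjusted p = 2.77e-08). The groups of neither gene overlapped. Spr (chr6:85130176-85137766, minus strand), sepiapterin reductase and the last step of synthesis, was at 21.2 ± 1.55 and 18.1 ± 0.419 CPM and was not called (log2 fold change -0.23, standard error 0.12, edgeR adjusted p = 0.113). Qdpr (chr5:45434021-45450236, minus strand), the recycling enzyme, fell from 79.4, 77.5 and 74.6 CPM in M0 to 31.1, 34.6 and 31.5 CPM in M1-like macrophages (log2 fold change -1.25, standard error 0.07, edgeR adjusted p = 4.51e-09), again with no overlap. Leaving out any 1 of the 6 samples kept the number of called members at 8. An antisense transcript, Gm42413, shares 332 exonic bases with Qdpr.

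After 24 h with IL-4, Arg1 and Slc7a2 were the members called, 2 higher and 0 lower, where 13.5% and 14.4% of all genes tested were called. Arg1 reached 524, 414 and 474 CPM in the M2-like samples (log2 fold change 6.42, standard error 0.46, edgeR adjusted p = 2.29e-06 against M0). Slc7a2 reached 566, 449 and 484 CPM (log2 fold change 3.07, standard error 0.11, edgeR adjusted p = 6.78e-09). For both genes, every M2-like sample lay above every M0 sample. Nos2 stayed at 1.13, 0.724 and 1.27 CPM, Ass1 at 5.92 ± 0.775 CPM and Gch1 at 26.7 ± 2.06 CPM, values that overlap those of M0. Qdpr lay above every M0 sample (81.0 to 91.4 against 74.6 to 79.4 CPM) and Pts below (21.4 to 25.0 against 25.3 to 26.7 CPM), though neither was called. Without the M2-like sample of mouse 1, the count of called members went from 2 to 4.

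M1-like and M2-like macrophages were then compared directly. Of the 10 members, 6 were higher in M1-like (34.6% of all genes) and 3 were lower (38.1%), and Spr was not called. Asl was among the 6, although it was not called against M0. Its levels ranged from 44.1 to 47.2 CPM under LPS and IFNγ, above the 33.4 to 40.8 CPM found under IL-4. Leaving out 1 sample at a time gave log2 fold changes of 0.20 to 0.34 for Asl, and the call was kept each time. Arg1 was the lower of both in M1-like cells of each of the 3 mice (log2 fold change -1.60, standard error 0.36, edgeR adjusted p = 0.0017), although both groups exceeded M0. Leaving out 1 sample at a time gave -2.30 to -1.31 for this log2 fold change of Arg1. Slc7a2, called higher under both stimuli, was in turn the higher under LPS and IFNγ (log2 fold change 3.36, standard error 0.11, edgeR adjusted p = 6.05e-11). Ass1 (3.91, standard error 0.11, edgeR adjusted p = 2.12e-11) and Gch1 (3.04, standard error 0.07, edgeR adjusted p = 4.09e-12) kept to the side of Nos2 (13.54, standard error 0.25, edgeR adjusted p = 5.29e-13), and Qdpr and Pts to the other (-1.43 and -1.07). Marker lists of other cells moved with the stimulus as well: the fibroblast sum was 9.40 to 12.6 CPM under LPS and IFNγ and 16.5 to 22.6 CPM under IL-4, and the eosinophil sum, nearly all of it Siglecf, 0.479 to 1.0 and 14.2 to 19.2 CPM, with Epx and Prg2 near 0 in both. The neutrophil sum was 10.1 to 15.2 and 37.3 to 42.3 CPM. The T cell sum went the other way, with 4.95 to 5.90 CPM under LPS and IFNγ and 0.533 to 0.671 CPM under IL-4. Macrophage markers summed to 10281 to 11296 and 12706 to 13039 CPM. The part of these marker lists in the results was not tested.

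Levels of different genes can be set beside each other only per length of their exons. That length is here the union of all annotated exons of a gene, and not the length of the transcript in use. It was 1788 bases for Qdpr, 3545 for Spr, 6101 for Pts and 6251 for Gch1, so the order and the gaps below depend on the annotation. Per kilobase, Nos2 led the M1-like macrophages of the polarization experiment with 2799.6 CPM per kb, followed by Slc7a2 with 561, Arg1 with 69.8, Ass1 with 36.8 and Gch1 with 35.0 CPM per kb. In M2-like macrophages, Arg1 came first with 211 CPM per kb, before Slc7a2 with 54.7 and Qdpr with 48.7 CPM per kb. In M0 macrophages, Qdpr came first with 43.2 CPM per kb, and the other 9 members were between 0.212 (Nos2) and 8.56 CPM per kb (Asl). Per kilobase of annotated exons, the recycling gene Qdpr thus stood above the 3 synthesis genes in M0 and M2-like but below Gch1 in M1-like macrophages.

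In the reprogramming experiment, untransfected M1-like macrophages had more Nos2, Slc7a2, Ass1 and Gch1 RNA than M0 and M2-like macrophages, and less Asl, Pts, Spr and Qdpr RNA. Nos2 was at 824, 654 and 639.9 CPM in the 3 untransfected M1-like libraries, at 0.146, 0.0620 and 0.0682 CPM in M0, and at 0 counts in all 3 M2-like libraries. Against a floor of 3 counts over the 3 M2-like libraries (0.0672 CPM), Nos2 was at least 10533-fold higher in M1-like macrophages, and against M0 its log2 fold change was 12.82 (standard error 0.32, edgeR adjusted p = 7.45e-24). Outside the M1-like conditions, no library of this experiment exceeded 2.86 CPM for Nos2. Ass1 was a rare transcript here. It had 2.50, 1.54 and 1.70 CPM in M1-like and 0.366, 0.0620 and 0.409 CPM in M0 libraries (log2 fold change 2.79, standard error 0.61, edgeR adjusted p = 0.000214). In M2-like libraries only 3 reads were counted in all, which gave a ratio of M1-like to M2-like of 28.7 with an exact 95% interval of 9.51 to 142 that covers counting error only.

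Of the 10 members, 4 were higher and 4 lower in untransfected M1-like than in M0 macrophages (29.0% and 28.7% of the 14172 genes tested), and 5 were higher and 4 lower than in M2-like macrophages (31.3% and 30.2%). The comparisons share the M1-like libraries. Slc7a2 was at 148, 133 and 115 CPM in M1-like, 53.5, 47.3 and 39.9 CPM in M0 and 67.3, 70.6 and 47.7 CPM in M2-like libraries (against M2-like, log2 fold change 1.09, standard error 0.17, edgeR adjusted p = 2.02e-06). Gch1 was at 49.6, 45.5 and 53.5 CPM in M1-like, 27.7, 27.7 and 29.1 CPM in M0 and 32.2, 32.4 and 29.8 CPM in M2-like libraries (against M2-like, log2 fold change 0.66, standard error 0.10, edgeR adjusted p = 1.87e-06). M1-like libraries of both genes lay above all others of the 3 conditions. The 4 lower members were Asl, Pts, Spr and Qdpr in both comparisons, with -0.46, -0.89, -0.54 and -1.44 on the log2 scale against M2-like macrophages (edgeR adjusted p = 7.69e-06, 1.85e-07, 0.00177 and 7.6e-18). Qdpr was the clearest, at 46.9, 51.9 and 58.7 CPM in M1-like against 143, 137 and 147 CPM in M2-like libraries. For Asl, the direction against M2-like macrophages was opposite to that of the polarization experiment, where Asl was called higher with LPS and IFNγ than with IL-4. Why the direction differed was not tested. Arg2 was called higher than in M2-like macrophages (log2 fold change 1.63, standard error 0.51, edgeR adjusted p = 0.00649) although the groups overlap, and not without M1-like replicate 3 (1.15, edgeR adjusted p = 0.0806).

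Between untransfected M2-like and M0 macrophages of this experiment, 2 members were called (19.9% of all genes were called in either direction), Qdpr higher (log2 fold change 0.32, standard error 0.07, edgeR adjusted p = 0.000769) and Pts lower (log2 fold change -0.38, standard error 0.11, edgeR adjusted p = 0.0186). Pts was not called without M0 replicate 3 (-0.34, edgeR adjusted p = 0.075) or M2-like replicate 2 (-0.34, edgeR adjusted p = 0.0773). Slc7a2 and Arg1, the 2 members called after 24 h with IL-4 in the polarization experiment, had values of 17.5, 64.1 and 9.59 CPM (Arg1) and 67.3, 70.6 and 47.7 CPM (Slc7a2) in M2-like libraries, which overlap those of M0 (for Arg1, log2 fold change -0.32, standard error 0.69, edgeR adjusted p = 0.798). Slc7a2 was at 61.9 ± 12.4 CPM in M2-like and 46.9 ± 6.81 CPM in M0 libraries and was not called. Within each replicate number, its M2-like library exceeded its M0 library.

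Arg1 varied widely between the replicates of a condition. Its highest library was 1.68 to 6.68 times the lowest of the same condition (median 3.52 over 12 conditions), against medians of 1.11 for Gch1 and 1.09 for Qdpr. Replicate 2 was highest in 10 of the 12 conditions and replicate 3 lowest in 11. In iM1 macrophages, for example, Arg1 was at 25.0, 80.2 and 24.9 CPM. Untransfected M1-like libraries had 76.1, 136 and 35.3 CPM, M2-like libraries 17.5, 64.1 and 9.59 CPM and M0 libraries 72.2, 28.7 and 13.8 CPM, which all overlap. Arg1 was not called between untransfected M1-like and M2-like macrophages (log2 fold change 1.43, standard error 0.67, edgeR adjusted p = 0.0637). It was called without M2-like replicate 2 (2.61, edgeR adjusted p = 0.00581) or M1-like replicate 3 (1.80, edgeR adjusted p = 0.03). The main test does not use the replicate number. Within each number, the M1-like library exceeded the M2-like one, and with a replicate block Arg1 was called (1.54, edgeR adjusted p = 0.000641). The labels do not tie these numbers to mice. Against M0, too, Arg1 was not called by the main test (log2 fold change 1.12, standard error 0.66, edgeR adjusted p = 0.149). It was called without M0 replicate 1 (1.95, edgeR adjusted p = 0.0341) and with the replicate block (0.96, edgeR adjusted p = 0.0255), and the M1-like library exceeded the M0 one within each number.

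**Figure D2:**
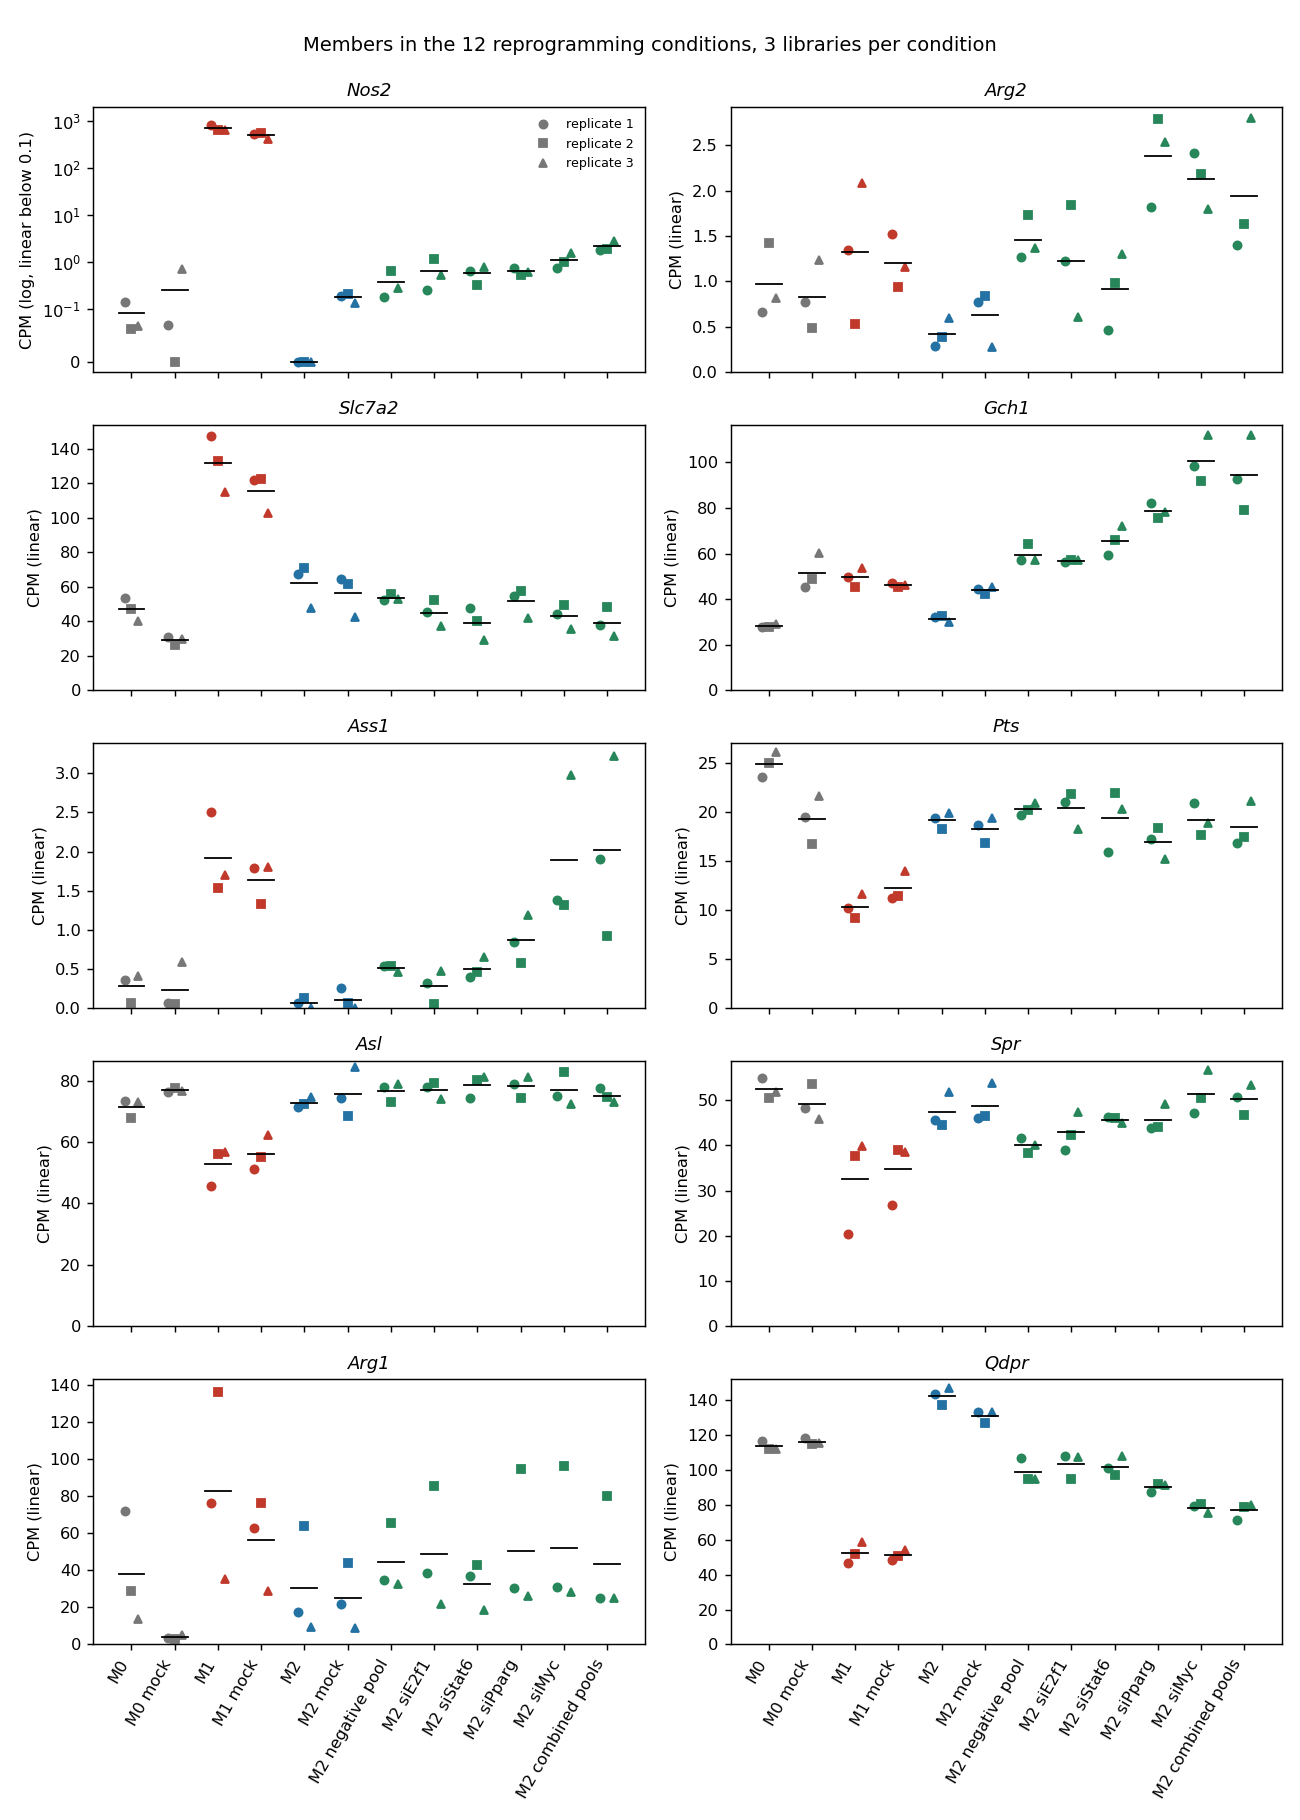
CPM of the 10 members in the 12 conditions of the reprogramming experiment, with 1 point per library (circle, square and triangle for replicates 1, 2 and 3) and a bar at the mean. Nos2 is on a log axis that is linear below 0.1 CPM, the others on linear axes. Gch1 climbs from untransfected M0 and M2-like macrophages to the Myc and combined pools while Qdpr falls. Qdpr is lowest in both M1-like conditions. The replicates of Arg1 spread widely in all conditions but mock-transfected M0.

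Some of these genes differed between mock-transfected and untransfected M0 and M2-like macrophages. The sampling time of the untransfected conditions is not stated, so the reagent and the time in culture cannot be told apart. In M0 macrophages, 4 members differed between mock-transfected and untransfected cells (20.4% of all genes). Gch1 rose from 27.7, 27.7 and 29.1 to 45.4, 48.6 and 60.2 CPM (log2 fold change 0.87, standard error 0.10, edgeR adjusted p = 1.37e-07). Arg1 fell to 3.64, 3.12 and 5.23 CPM (log2 fold change -3.26, standard error 0.86, edgeR adjusted p = 0.00623), Slc7a2 fell to 30.8, 26.1 and 29.7 CPM (log2 fold change -0.70, standard error 0.18, edgeR adjusted p = 0.00539) and Pts fell by a smaller amount (log2 fold change -0.37, standard error 0.11, edgeR adjusted p = 0.0184). Arg1 was not called without M0 replicate 1 (-2.43, edgeR adjusted p = 0.0692), and Pts was lost when M0 replicate 2 (-0.37, edgeR adjusted p = 0.0501), M0 replicate 3 (-0.34, edgeR adjusted p = 0.0768) or mock M0 replicate 2 (-0.28, edgeR adjusted p = 0.14) was left out. In M2-like macrophages, Gch1 was the 1 member called (1.77% of all genes), at 44.6, 42.1 and 45.3 CPM after mock transfection against 32.2, 32.4 and 29.8 CPM (log2 fold change 0.48, standard error 0.10, edgeR adjusted p = 0.00449), and not without M2-like replicate 3 (0.45, edgeR adjusted p = 0.051). In M1-like macrophages, 0 members and 0.0% of all genes were called. There, 1 member and 438 genes had an unadjusted edgeR p-value under 0.05, and DESeq2 called 0 genes. The member was Nos2, at 524, 560.1 and 421 CPM after mock transfection, each below every untransfected M1-like library (log2 fold change -0.49, standard error 0.14, edgeR adjusted p = 1).

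Because all siRNA conditions were transfected, M1-like and M2-like macrophages were also compared after mock transfection. Of the members, 3 were higher in mock M1-like macrophages (30.9% of all genes) and 4 lower (29.8%). Nos2 (log2 fold change 11.38, standard error 0.30, edgeR adjusted p = 3.55e-23), Ass1 (3.77, standard error 0.72, edgeR adjusted p = 3.58e-05) and Slc7a2 (1.04, standard error 0.17, edgeR adjusted p = 4.95e-06) were higher, and Asl, Pts, Spr and Qdpr lower, with -0.43, -0.59, -0.48 and -1.36 on the log2 scale. Spr was not called without mock M1-like replicate 1 (-0.33, edgeR adjusted p = 0.0554). Arg1 was not called, at 56.2 ± 24.4 CPM in mock M1-like and 24.9 ± 17.7 CPM in mock M2-like libraries, which overlap. It was called higher in mock M1-like with only the compared groups in the model (1.16, edgeR adjusted p = 0.0243) and with a replicate block (1.28, edgeR adjusted p = 0.00444). Arg2 was not called either, at 1.21 ± 0.297 and 0.629 ± 0.306 CPM without overlap. Gch1, called higher in untransfected M1-like than M2-like macrophages, was at 47.1, 45.1 and 46.3 CPM in mock M1-like and 44.6, 42.1 and 45.3 CPM in mock M2-like libraries, which overlap (log2 fold change 0.07, standard error 0.10, edgeR adjusted p = 0.569). The difference between both contrasts, tested as an interaction, was -0.59 on the log2 scale for Gch1 (standard error 0.14, edgeR adjusted p = 0.0298), and Gch1 was the 1 member called in that test (1.13% of all genes). In 10 of 12 leave-outs of 1 library the call was lost, that is, without any 1 of M1-like replicates 1 and 3, mock M1-like replicates 1, 2 and 3, mock M2-like replicates 1 and 3 and M2-like replicates 1, 2 and 3 (-0.61 to -0.53, edgeR adjusted p = 0.0505 to 0.115).

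Against mock M0, 8 members were called in mock M1-like macrophages (60.4% of all genes) and 1 in mock M2-like macrophages (3.83%). Arg1 was among the first, 56.2 ± 24.4 CPM in mock M1-like against 4.0 ± 1.10 CPM in mock M0 (log2 fold change 3.83, standard error 0.85, edgeR adjusted p = 0.000256). Slc7a2 was the member called in mock M2-like macrophages (log2 fold change 0.97, standard error 0.18, edgeR adjusted p = 0.00123), at 64.3, 61.7 and 42.7 CPM with no overlap with mock M0. Arg1 lay above every mock M0 library in each mock M2-like library, 21.9, 44.0 and 8.92 CPM, but did not pass (log2 fold change 2.65, standard error 0.88, edgeR adjusted p = 0.0912). Of 6 leave-outs of 1 library, it passed in 1, without mock M2-like replicate 3 (3.05, edgeR adjusted p = 0.0485). Arg1 also passed with DESeq2 (2.65, DESeq2 adjusted p = 0.0144) and with a replicate block (2.53, edgeR adjusted p = 0.00255). The same held with only the compared groups in the model (2.64, edgeR adjusted p = 0.0369) and without the filter. Markers of other cells moved with the M1-like state in this experiment too: the 5 fibroblast markers summed to 33.3 to 96 CPM in untransfected and 22.1 to 43.7 CPM in mock M1-like libraries, against 113 to 383 and 174 to 279 CPM in the M2-like ones and 127 to 249 and 192 to 302 CPM in M0. All 5 were detected, and the 7 macrophage markers summed to 6642 to 7786 CPM in untransfected M1-like libraries, against 15934 to 18319.7 CPM in untransfected M2-like ones. The T cell sum went the other way, with 2.14 to 4.10 CPM in untransfected M1-like and 0.358 to 0.902 CPM in untransfected M2-like libraries. The part of these marker lists in the results was not tested.

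The negative pool itself was also compared with mock transfection. Against mock-transfected M2-like macrophages, 2 members were called (11.7% of all genes): Gch1 rose to 57.2, 64.0 and 57.0 CPM (log2 fold change 0.43, standard error 0.10, edgeR adjusted p = 0.00335) and Qdpr fell from 133, 127 and 133 to 107, 94.9 and 95 CPM (log2 fold change -0.41, standard error 0.07, edgeR adjusted p = 8.39e-05). Ass1 had 0.542, 0.534 and 0.458 CPM with the negative pool and 0.256, 0.0701 and 0 CPM after mock transfection, and did not pass (log2 fold change 2.10, standard error 0.86, edgeR adjusted p = 0.117). The siRNA pools were set against both references, which share the same knockdown libraries.

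In iM1 macrophages, which had received all 4 pools, Nos2, Ass1 and Gch1 were higher and Qdpr lower than in M2-like macrophages, whichever reference was used. Against mock, 4 members were higher and 2 lower (19.0% and 18.1% of all genes). Against the negative pool, 3 were higher and 1 lower (12.5% and 13.9%). Nos2 was at 1.84, 1.96 and 2.86 CPM in iM1, at 0.192, 0.210 and 0.139 CPM in mock and at 0.181, 0.667 and 0.286 CPM in negative pool libraries. All iM1 values lay above all of both references, and still far under the 524, 560.1 and 421 CPM of mock M1-like libraries. The log2 fold change of Nos2 was 3.56 against mock (standard error 0.58, edgeR adjusted p = 1.08e-05) and 2.57 against the negative pool (standard error 0.48, edgeR adjusted p = 0.000148).

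Ass1 reached 1.91, 0.924 and 3.22 CPM in iM1 macrophages, a level that overlaps that of mock M1-like libraries (1.79, 1.33 and 1.80 CPM), on the basis of 17 to 53 reads per iM1 library. Its log2 fold change was 4.06 against mock (standard error 0.70, edgeR adjusted p = 2.37e-05) and 1.96 against the negative pool (standard error 0.53, edgeR adjusted p = 0.00577), and the latter call was lost without iM1 replicate 3 (1.44, edgeR adjusted p = 0.0715). Gch1 was at 92.8, 78.9 and 112 CPM, above every library of both references and of mock M1-like macrophages. Its log2 fold change was 1.10 against mock (standard error 0.10, edgeR adjusted p = 1.75e-10) and 0.67 against the negative pool (standard error 0.10, edgeR adjusted p = 4e-06). Qdpr was at 71.6, 79.1 and 80.0 CPM, below both references and above M1-like libraries (-0.77, standard error 0.07, edgeR adjusted p = 1.55e-10 against mock). Arg2 was called higher against mock (log2 fold change 1.61, standard error 0.45, edgeR adjusted p = 0.00516) but not without iM1 replicate 3 (1.25, edgeR adjusted p = 0.0515), and not against the negative pool (0.42, edgeR adjusted p = 0.466). Slc7a2 was lower in iM1 against mock (log2 fold change -0.52, standard error 0.18, edgeR adjusted p = 0.0197), a call lost without any 1 of iM1 replicates 1 and 3 and mock M2-like replicates 1 and 2 (-0.50 to -0.39, edgeR adjusted p = 0.0592 to 0.131). Arg1, Asl, Pts and Spr were not called against either reference. Spr still lay above all negative pool libraries (38.4 to 41.6 CPM) in iM1 (46.8 to 53.3 CPM) and with the Myc pool (47.2 to 56.7 CPM). Against the negative pool, DESeq2 called 5 members in each of these, where edgeR called 4. The neutrophil marker sum moved with the called genes. It was 56.6 to 63.4 CPM in iM1 and 53.0 to 61.7 CPM in Myc pool libraries, against 23.6 to 28.7 CPM in mock and 30.1 to 46.4 CPM in negative pool libraries. Mmp8 made up most of this sum, and the part of neutrophil markers in the result was not tested.

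**Figure D3:**
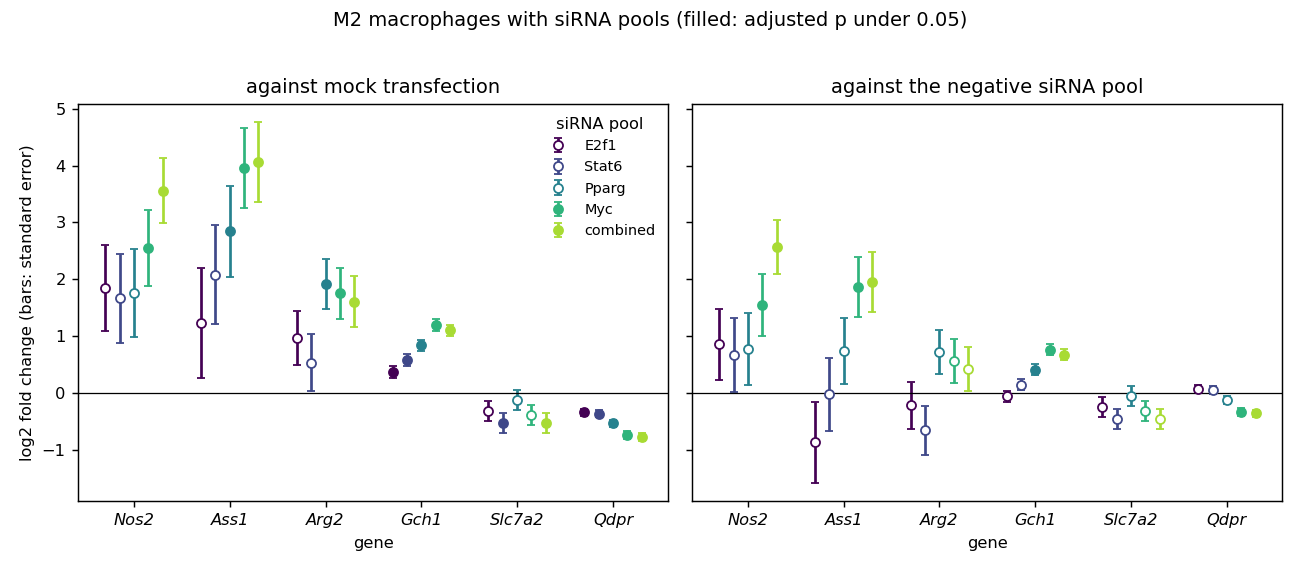
Log2 fold changes with standard errors of 6 members in M2-like macrophages with each siRNA pool, against mock transfection (left) and against the negative pool (right), 3 libraries per condition, filled points where the edgeR adjusted p-value is under 0.05. Myc and combined pools stand beside each other for Ass1, Gch1 and Qdpr, and fewer points are filled against the negative pool.

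The single pools were tested in the same way. With the Myc pool, 5 members were called against mock (38.7% of all genes) and 4 against the negative pool (29.6%). Against the negative pool, these were Nos2 (log2 fold change 1.55, standard error 0.55, edgeR adjusted p = 0.0309), Ass1 (1.86, standard error 0.53, edgeR adjusted p = 0.00777), Gch1 (0.76, standard error 0.10, edgeR adjusted p = 4.46e-07) and, lower, Qdpr (-0.33, standard error 0.07, edgeR adjusted p = 0.000393). Gch1 had 98.3, 92.0 and 112 CPM, the highest mean of all 12 conditions, and Ass1 had 1.38, 1.32 and 2.98 CPM. The calls of Nos2 and Ass1 were lost without Myc pool replicate 3 (1.24, edgeR adjusted p = 0.146 for Nos2 and 1.39, edgeR adjusted p = 0.0773 for Ass1), and that of Nos2 also without Myc pool replicate 2 (1.61, edgeR adjusted p = 0.0535) and negative pool replicates 1 (1.23, edgeR adjusted p = 0.133) and 3 (1.39, edgeR adjusted p = 0.111). Against mock, the Myc pool gave log2 fold changes of 2.54 for Nos2, 1.75 for Arg2, 3.96 for Ass1, 1.19 for Gch1 and -0.74 for Qdpr, all called.

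With the Pparg pool, 4 members were called against mock (17.2% of all genes): Arg2 (1.91), Ass1 (2.84) and Gch1 (0.84) higher and Qdpr (-0.54) lower on the log2 scale. Ass1 was not called without Pparg pool replicate 3 (2.55, edgeR adjusted p = 0.0502) or mock replicate 3 (2.31, edgeR adjusted p = 0.0569). Against the negative pool, Gch1 was the 1 member called (5.74% of all genes), at 82.2, 75.8 and 78.1 CPM (log2 fold change 0.41, standard error 0.10, edgeR adjusted p = 0.00958), and not without negative pool replicate 1 (0.38, edgeR adjusted p = 0.0554) or 3 (0.38, edgeR adjusted p = 0.0611). The neutrophil marker sum was 88.9 to 114 CPM in these libraries and 30.1 to 46.4 CPM with the negative pool, nearly all of it Mmp8. The part of these markers in the result was not tested.

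With the Stat6 pool, 3 members were called against mock (11.5% of all genes): Gch1 (log2 fold change 0.58, standard error 0.10, edgeR adjusted p = 0.000121), Qdpr (log2 fold change -0.36, standard error 0.07, edgeR adjusted p = 0.000338) and Slc7a2 (log2 fold change -0.53, standard error 0.18, edgeR adjusted p = 0.0493), the last of which lost its call without any 1 of Stat6 pool replicates 2 and 3 and mock M2-like replicates 1 and 2 (-0.55 to -0.36, edgeR adjusted p = 0.102 to 0.303). With the E2f1 pool, 2 were (11.6%), Gch1 (log2 fold change 0.37, standard error 0.10, edgeR adjusted p = 0.0126) and Qdpr (log2 fold change -0.34, standard error 0.07, edgeR adjusted p = 0.000681). Gch1 was not called there without mock replicate 2 (0.34, edgeR adjusted p = 0.0515). Against the negative pool, edgeR called 0 members with the Stat6 pool (1.51% of all genes) and 0 with the E2f1 pool (0.91%). At an unadjusted p-value under 0.05 there were 1 and 0, and DESeq2 called 0 in both. The member was Slc7a2, whose Stat6 pool values (47.7, 39.9 and 29.1 CPM) all lay below those of the negative pool (52.3, 55.5 and 52.8 CPM, log2 fold change -0.46, edgeR adjusted p = 0.235).

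The combined pools were also compared with each single pool. Against the Myc pool, edgeR called 0 members (0.0494% of all genes), 1 had an unadjusted p-value under 0.05, and DESeq2 called 0. The log2 differences were -0.09 for Gch1 (standard error 0.10), 0.10 for Ass1 (0.44), -0.03 for Qdpr (0.07) and 1.02 for Nos2 (0.36). Nos2 was the member under 0.05 before adjustment, and its 3 iM1 libraries lay above the 0.740, 1.02 and 1.61 CPM of the Myc pool. That no member passed does not show that iM1 and Myc pool macrophages were alike. Against the E2f1 pool, 4 members were called (21.6% of all genes), against the Stat6 pool 4 (22.2%) and against the Pparg pool 2 (18.0%). Nos2 was higher in iM1 in all of these, by 1.71, 1.90 and 1.80 on the log2 scale (edgeR adjusted p = 0.00335, 0.00196 and 0.00336), and Qdpr was lower, with -0.43, -0.41 and -0.23. Against the Pparg pool, the call of Qdpr was lost without any 1 of iM1 replicate 1 and Pparg pool replicates 2 and 3 (-0.22 to -0.18, edgeR adjusted p = 0.0544 to 0.11), and 5 members were called without iM1 replicate 2. Ass1 and Gch1 were higher in iM1 than with the E2f1 and the Stat6 pool, the call of Ass1 against Stat6 being lost without iM1 replicate 3 (1.47, edgeR adjusted p = 0.0822).

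**Figure D4:**
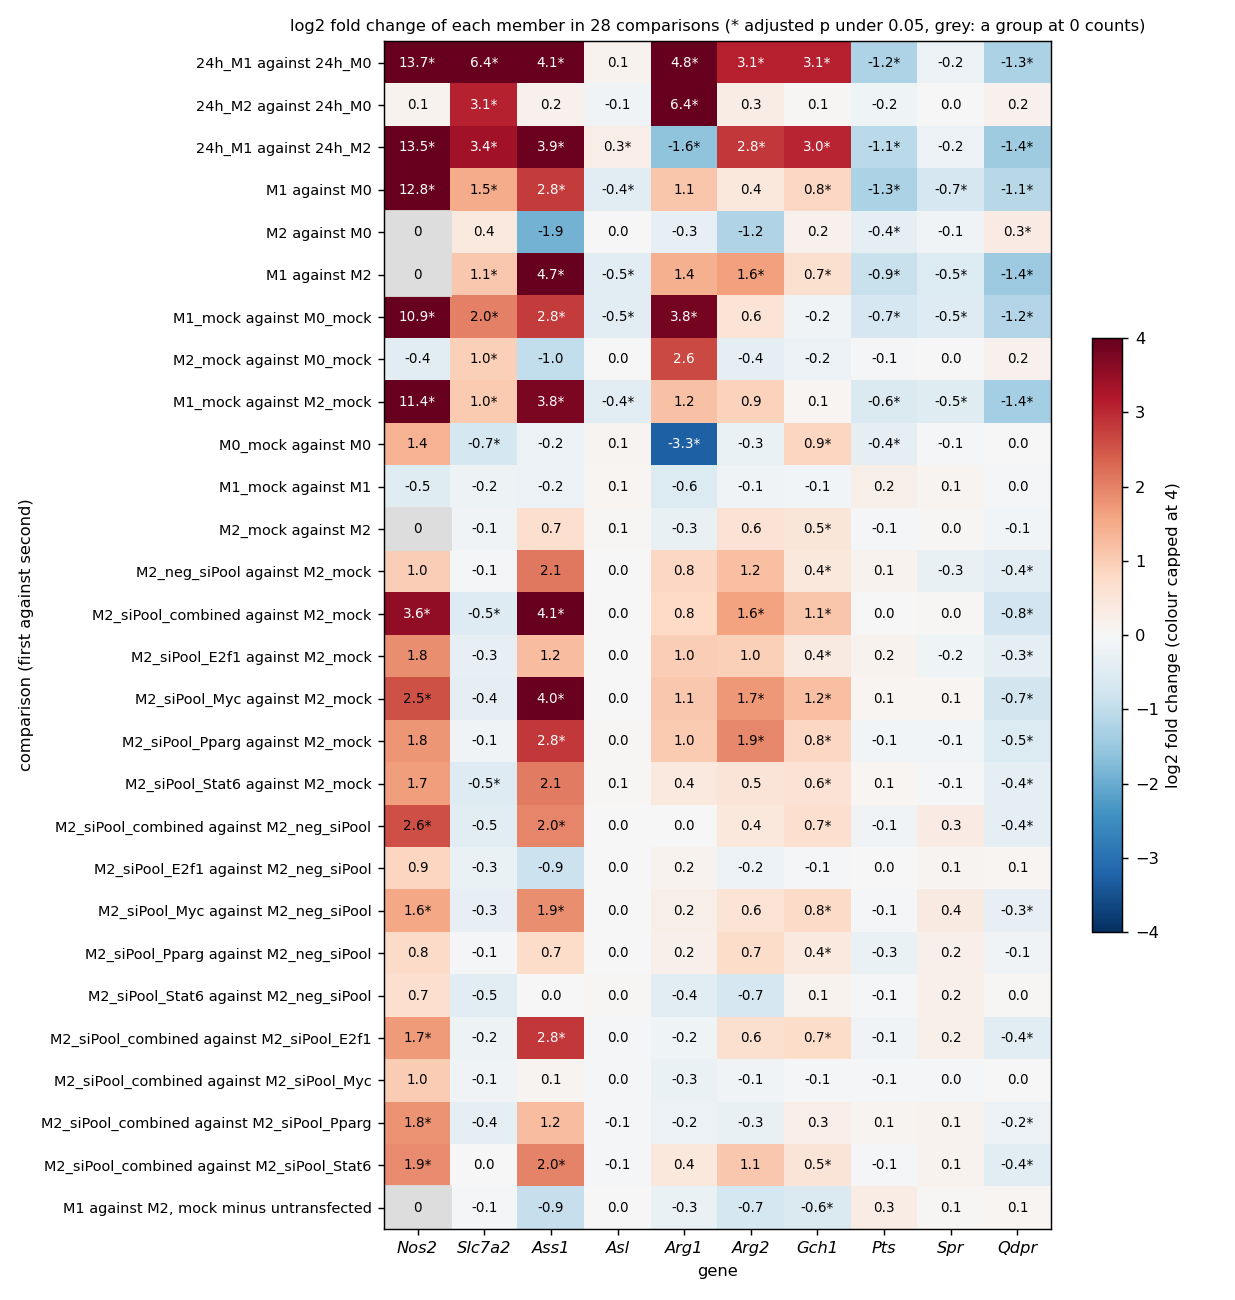
Log2 fold change of the 10 members (columns) in the 28 comparisons (rows, first condition against second), with colour capped at 4, an asterisk where the edgeR adjusted p-value is under 0.05 and grey where a condition had 0 counts. Nos2 and Ass1 are red and Qdpr blue where M1-like macrophages are set against M0 or M2-like ones. The exception is the grey Nos2 cell of untransfected M1-like against M2-like macrophages. The same colours appear where the Myc or combined pools are set against mock or the negative pool. Asl stays near 0 in the siRNA rows.

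Ordered by mean CPM over the 12 conditions, Gch1 ran from M0 (28.2 ± 0.840 CPM) and M2-like (31.5 ± 1.48 CPM) through mock M2-like (44.0 ± 1.71), mock M1-like (46.2 ± 1.01), M1-like (49.5 ± 3.99), mock M0 (51.4 ± 7.75), the E2f1 pool (56.9 ± 0.549), the negative pool (59.4 ± 4.01) and the Stat6 pool (65.6 ± 6.40) to the Pparg pool (78.7 ± 3.27), the combined pools (94.6 ± 16.7) and the Myc pool (101 ± 10.2). Neighbours in this order overlap except for M0 and M2-like, M2-like and mock M2-like, and the Stat6 and the Pparg pool. Qdpr ran nearly the other way among the M2-like conditions, from 142 ± 4.95 CPM in untransfected M2-like to 76.9 ± 4.63 CPM in iM1 macrophages, with both M1-like conditions at the bottom. Unlike Gch1, Nos2 separated the M1-like conditions from all others.

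Over the mean log2 CPM of the 12 conditions, the genes most like Nos2 by Pearson's r, among 10130 genes, were Irf1 (1.0), Pla2g16 (0.99), Wars (0.99), Trit1 (0.99) and Tmbim4 (0.99). For Ass1 they were Cdkn1a (0.98), Acod1 (0.98), Cdc34 (0.98) and Plau (0.97), for Gch1 Ccdc86 (0.98), Ifit1bl1 (0.97), Csf1 (0.97), Tor1aip2 (0.97) and Mvb12a (0.97), and for Arg1 Mthfd2 (0.93), Mtbp (0.92), Tstd3 (0.92), Tbpl1 (0.87) and Cops5 (0.87). Irf1 codes for an interferon-induced transcription factor and Acod1 for the enzyme that makes itaconate. Among the members, r was 0.81 for Nos2 and Slc7a2, 0.73 for Nos2 and Ass1, 0.09 for Nos2 and Gch1, 0.63 for Ass1 and Gch1, and -0.94 for Nos2 and Qdpr. These values describe 12 points that share libraries and normalization.

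Beyond the 10 members, a list of 31 other genes of arginine transport, the urea cycle and arginine use, tetrahydrobiopterin and nitric oxide was counted, of which 20 could be tested in the first experiment and 21 in the second. At 24 h, 3 higher and 14 lower genes passed in M1-like against M0, 3 higher and 3 lower in M2-like against M0, and 2 higher and 14 lower in M1-like against M2-like macrophages. Over all genes, 35.4% were higher and 37.5% lower in the first, 13.5% and 14.4% in the second and 34.6% and 38.1% in the third comparison. Medians of the log2 fold change were -0.59, 0.00 and -0.46. Slc3a2, the heavy chain that pairs with several amino acid transporters, rose from 372 ± 2.38 to 764 ± 43.8 CPM in M1-like macrophages (log2 fold change 1.04, standard error 0.07, edgeR adjusted p = 7.9e-08). Gatm, the arginine to glycine amidinotransferase of creatine synthesis, was at 8.72 ± 0.316 CPM in M0, 2.52 ± 0.543 CPM under LPS and IFNγ and 53.3 ± 5.67 CPM under IL-4 (log2 fold change 2.61, standard error 0.11, edgeR adjusted p = 3.86e-08 for M2-like against M0). The peptidyl arginine deiminases Padi2 and Padi4, which turn protein arginine into citrulline, fell in M1-like macrophages (-4.97 and -3.34 on the log2 scale, edgeR adjusted p = 3.14e-11 and 3e-09), as did Slc7a7 (-1.05), Cbr1 (-1.25), Akr1b3 (-1.93) and Nostrin (-2.12).

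In the reprogramming experiment, 4 higher and 10 lower genes of the 21 tested passed in M1-like against M2-like macrophages and 4 higher and 11 lower after mock transfection. In iM1 macrophages, 3 higher and 7 lower passed against mock and 3 higher and 7 lower against the negative pool, and with the Myc pool 3 higher and 5 lower and 3 higher and 8 lower. The shares over all genes were 31.3% higher and 30.2% lower for M1-like against M2-like, 30.9% and 29.8% after mock transfection, 19.0% and 18.1% for iM1 against mock, and 12.5% and 13.9% against the negative pool. In either direction, the Myc pool had 38.7% against mock and 29.6% against the negative pool. With the E2f1, Pparg and Stat6 pools, edgeR called 0 of the 21 against the negative pool, where 0.91%, 5.74% and 1.51% of all genes were called. Gatm was at 43.1 ± 9.42 CPM in mock M2-like macrophages and 48 ± 11.7 CPM with the negative pool, against 18.6 ± 4.5 CPM in iM1 and 19.6 ± 2.77 CPM with the Myc pool (iM1 against the negative pool, log2 fold change -1.37, standard error 0.18, edgeR adjusted p = 1.01e-06). Gamt, the next enzyme of creatine synthesis, was at 11.4 ± 1.87 CPM in mock M2-like and 1.95 ± 0.529 CPM in iM1 macrophages (log2 fold change -2.55, standard error 0.21, edgeR adjusted p = 1.85e-11). Padi2 was at 22.0 ± 4.13 CPM and 5.81 ± 0.795 CPM (log2 fold change -1.92, standard error 0.22, edgeR adjusted p = 1.77e-08), and it was also lower with the negative pool than after mock transfection (log2 fold change -1.10, standard error 0.21, edgeR adjusted p = 0.000364). Odc1, ornithine decarboxylase and the first step from ornithine to polyamines, was higher in M1-like than M2-like macrophages of this experiment (log2 fold change 1.56, standard error 0.13, edgeR adjusted p = 4.83e-12).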

How the data were processed

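Thioglycolate-elicited mouse macrophages were profiled by RNA-seq (18 single-end and 36 paired-end libraries). Per the labels and the study's methods, the authors trimmed reads with Trimmomatic, aligned them with TopHat2 to mm10 and counted them per gene with featureCounts, and deposited raw counts. Versions, annotation release and strand setting are not given in the sources used here. Counts of technical replicates were summed per mouse. edgeR 4.0.16 (R 4.3.3) was run with TMM scaling, filterByExpr (minimum count 10, minimum total 15) and the quasi-likelihood test, with all conditions of an experiment in 1 model and Benjamini-Hochberg adjustment per comparison. The scripts were tested on simulated data.

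The alternatives were DESeq2 1.42.0, RLE scaling, 2 other filters, a replicate block, fewer groups in the model, unsummed technical replicates and leaving out each sample. Replicate numbers name the same mouse in the polarization experiment (median correlation of same-numbered deviations 0.25, against -0.14 for others). All 10 members are named, though not in every comparison. Other pathway genes are named at an adjusted p-value under 0.05, a change of 1 or more on the log2 scale in either direction and 10 CPM or more in the higher group, and genes of similar pattern as the 5 highest Pearson correlations. For Ass1, 1 of these 5 is not reported here. The members and lists were chosen with earlier results of these data known.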

Additional observations from a re-analysis of the deposited data

Results flagged for a closer look

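The contrast of M1-like against M2-like macrophages differed for Gch1 between mock-transfected and untransfected cells, with an interaction of -0.59 on the log2 scale (standard error 0.14, edgeR adjusted p = 0.0298). The contrast was 0.66 in untransfected and 0.07 in mock-transfected macrophages, with 3 libraries per condition. The cause was not tested.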

How the results depend on the processing

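No called member changed direction under any alternative, and RLE scaling changed no call of a single gene. With DESeq2, without the filter, with the replicate block and with only the compared groups in the model, 2 members instead of 1 were called in mock M2-like against mock M0 macrophages. Without the filter, the counts were 1 (main 0) for mock against untransfected M1-like, 5 (main 2) for the negative pool and 5 (main 2) for the E2f1 pool against mock, 5 (main 3) for the Stat6 pool against mock, 1 (main 0) for Stat6 against the negative pool, 1 (main 0) for combined against Myc, 4 (main 2) for combined against Pparg, and 2 (main 1) for the interaction. The prior degrees of freedom of that fit were 484 against 7.75. At 10 counts or more in every sample, which removes the low-count members by construction, 3 members remained called for combined against mock, and 2 each for Myc and Pparg against mock and for combined against the negative, E2f1 and Stat6 pools. With technical replicates as separate samples, 4 members (main 2) were called in M2-like against M0 macrophages at 24 h.

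The replicate block changed no call in the polarization experiment. In the reprogramming experiment, where samples share only a number (34 of 36 correlate best with their own number, median correlation 0.18), the block gave 1 call (main 0) for Stat6 against the negative pool and 5 (main 2) for combined against Pparg. It also turned 5 uncalled results of Arg1 into calls, namely M1-like against M0 (0.96, edgeR adjusted p = 0.0255), M1-like against M2-like (1.54, edgeR adjusted p = 0.000641), the same after mock transfection (1.28, edgeR adjusted p = 0.00444), mock M2-like against mock M0 (2.53, edgeR adjusted p = 0.00255) and Myc against mock (1.07, edgeR adjusted p = 0.025). Leaving out 1 sample gave 2 to 4 calls for M2-like against M0 at 24 h, 1 to 3 for untransfected M2-like against M0, 0 to 1 for the interaction, 1 to 5 for combined against Pparg, 2 to 5 for Myc against the negative pool, 1 to 2 for E2f1 against mock, 1 to 2 for mock M2-like against mock M0, 0 to 1 for Pparg against the negative pool and 0 to 1 for mock against untransfected M2-like. Where the construction of an alternative does not show it, the cause was not tested. Depth limits Arg2 and Ass1 in all conditions of the reprogramming experiment, and Nos2 there outside the M1-like conditions.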
